A study of Mus musculus with 3 samples.

Results

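Cycling epithelial cells of the mouse cornea and limbus were examined before and after injury, in 1 droplet library per group. A barcode counted as an epithelial cell when Krt5, Krt14 and Krt12 together reached 100 of 10000 unique molecular identifiers (UMIs, counted RNA molecules), and as cycling when at least 3 of the 7 genes Mki67, Top2a, Cdk1, Ube2c, Birc5, Cenpf and Ccnb1 had a UMI. The rule found 2075 cycling cells among 13972 epithelial cells and 23863 cells in all. There were 319 cycling cells among 1751 epithelial cells after nitrogen mustard (NM) with losartan, 231 among 864 after NM with saline, and 1525 among 11357 in the uninjured eye. All 3 mice were wild type, and the tissue was the anterior segment with most of the conjunctiva removed, labelled cornea/limbus. The study asked how losartan acts on the injured cornea. NM alkylates and crosslinks DNA. Losartan is an antagonist of the type 1 receptor for angiotensin II. The injured groups share NM, and the sources used here do not give strain, age, how long after injury tissue was taken, or how losartan was dosed. Each group was 1 mouse, so no difference between groups has a replicate check, and all intervals below are 95% intervals that cover counting error only.

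The corneal epithelium renews itself from basal cells at the limbus, the border with the conjunctiva, and from dividing basal cells of the cornea itself. Cells that commit to division first license and copy their DNA, with enzymes made in S phase, and then make the kinases, spindle and kinetochore proteins of G2 and mitosis. DNA damage stabilises p53, which raises the CDK inhibitor p21 (Cdkn1a) and can hold cells before S phase or before mitosis. Basal keratinocytes make Krt5 and Krt14, corneal epithelium makes Krt12, and wounded epithelium makes Krt6a, Krt16 and Krt17.

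The cycle genes and keratins of the rule chose the cells, so they give no check of the label. All 14 further epithelial markers were detected in the cycling cells of each library, and their summed level was 9791 CPM (a UMI sum scaled to the same total in every group) in losartan cells, 11238 CPM in saline cells and 9646 CPM in uninjured cells. Sums over so many cells also detected 48 of 48 DNA repair genes in each library, so detection alone sets nothing apart. No level in another cell type is given beside these sums. Depth differed between the groups. The median cycling cell had 44984 UMIs after losartan, 81380 after saline and 17088 in the uninjured library, against 29938, 4925 and 12272 in the other epithelial cells of the same libraries. Cycling cells above 100000 UMIs numbered 18, 90 and 1 in the same order of libraries. At least 2 of 6 defining leukocyte genes were detected in 4.08% of losartan, 22.5% of saline and 0.0656% of uninjured cycling cells. No cell barcode of a cycling cell was shared between libraries. A simulated-doublet score marked 29 losartan, 4 saline and 317 uninjured cycling cells, and these were kept except where stated. The part of depth, leukocyte RNA and doublets in the results was not tested beyond the values given with and without these cells.

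Cycling cells made up 18.2% (16.4 to 20.1) of epithelial cells after losartan, 26.7% (23.8 to 29.8) after saline and 13.4% (12.8 to 14.1) in the uninjured library. These shares were higher in the deepest than in the shallowest cells, and a deeper cell more easily shows 3 of 7 genes. In losartan cells the share was 4.41% (10 of 227) below 2000 UMIs and 51.4% (18 of 35) above 100000 UMIs, and in saline cells 9.16% (24 of 262) and 60% (90 of 150). In uninjured cells it was 2.96% (27 of 911) below 2000 UMIs, with only 2 cells above 100000 UMIs. When every cell with at least 5000 UMIs was thinned to 5000 UMIs, the share was 9.53% (8.02 to 11.2) after losartan, 14.9% (11.9 to 18.3) after saline and 10.1% (9.44 to 10.7) in the uninjured library. The losartan and uninjured intervals then overlapped, and the saline interval lay above both. Thinning left out 22.1% of losartan, 41.8% of saline and 24.1% of uninjured epithelial cells as too shallow. Without the cells that had held over 100000 UMIs the saline share was 11.6% (8.47 to 15.4), which overlaps 9.48% after losartan and 10.1% in the uninjured library. The order of the libraries at equal depth differed between bands of the depth before thinning. Among cells that had held 5000 to 20000 UMIs the share was 7.77% (4.51 to 12.3) after losartan, 14.8% (6.98 to 26.2, 9 of 61) after saline and 8.07% (7.40 to 8.78) in the uninjured library. At 20000 to 50000 UMIs it was 9.09% (7.10 to 11.4), 5.68% (1.87 to 12.8, 5 of 88) and 15.5% (13.97 to 17.1), with saline lowest. At 50000 to 100000 UMIs it was 11.1%, 13.2% and 12.1%, with intervals that overlap. With the keratin threshold at 200 of 10000 UMIs the equal-depth shares were 3.88%, 7.83% and 8.43% in losartan, saline and uninjured cells, so the order of the groups depended on how much keratin a cell had to hold.

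**Figure D1:**
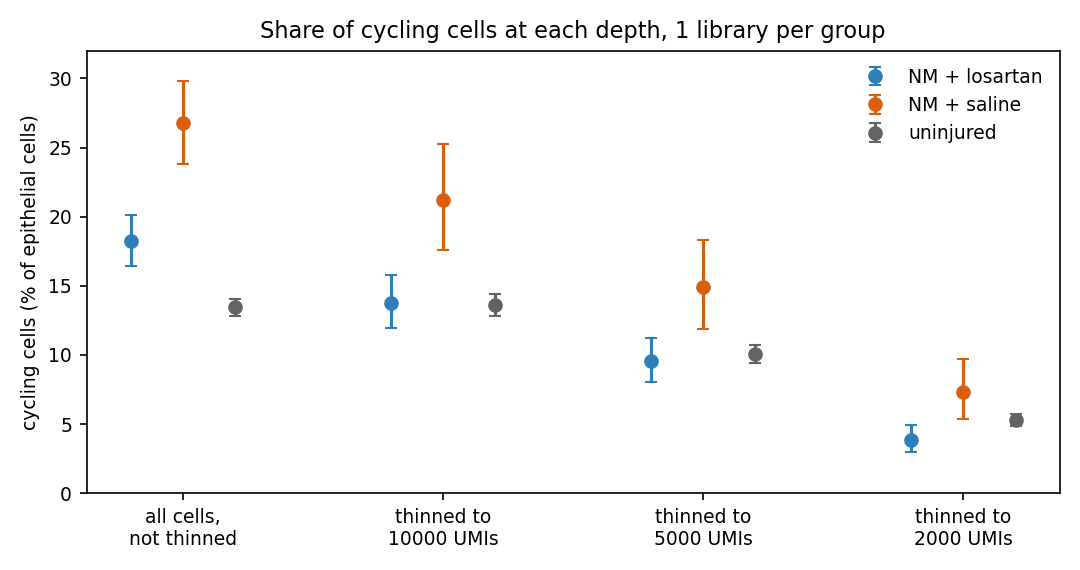
Cycling cells as a percentage of epithelial cells (vertical axis) without thinning and after thinning each cell to 10000, 5000 or 2000 UMIs (horizontal axis), for NM with losartan, NM with saline and uninjured. Points are 1 library each and bars are exact 95% intervals for counting error; the share of 18.2% after losartan and 13.4% in the uninjured library becomes 9.53% and 10.1% at 5000 UMIs.

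Cells at the edges of the rule were common. With exactly 3 of the 7 genes, just inside the threshold, there were 83 losartan, 67 saline and 398 uninjured epithelial cells, and with exactly 2, just outside it, 114, 102 and 748. Of the cells with 3 or more cycle genes, 65, 43 and 31 lay up to 25 keratin UMIs per 10000 above the threshold and 44, 42 and 22 up to 25 below it. The median keratin sum of cycling cells was 166 per 10000 UMIs after losartan, 170 after saline and 268 in the uninjured library. Cells of types that should rarely pass the rule gave its background. Applied to keratin-poor cells rich in S100a8 and S100a9, which mark neutrophils, 3 of 7 genes were found in 0 of 971 losartan cells and 0 of 1944 saline cells, which allows up to 0.309% and 0.154%. Those cells had medians of 2657 and 4130 UMIs, against 33214 and 26374 UMIs in all epithelial cells of the same libraries. Cells rich in the stromal genes Dcn, Kera and Lum passed in 14 of 801 losartan, 3 of 761 saline and 2 of 442 uninjured cells. At 2000 UMIs, where depth is equal, 3.87% of losartan, 7.31% of saline and 5.26% of uninjured epithelial cells passed, against 1 of 663, 0 of 586 and 0 of 412 stromal cells.

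Cycling cells lay at different places of the keratin range before and after injury, and so did all epithelial cells. Krt14 (chr11:100203162-100207548, minus strand, in GRCm38), the basal keratin partner of Krt5, had 11072 CPM in losartan cycling cells, 13516 CPM in saline cycling cells and 1555 CPM in uninjured cycling cells. Krt12, the cornea-specific keratin, had 4468 CPM after losartan, 1968 CPM after saline and 24312 CPM in the uninjured library. Krt5 had 3766, 4306 and 5120 CPM in the same libraries. Because these 3 keratins chose the epithelial cells, their levels are given as a description. At 5000 UMIs, Krt14 held over 90% of the Krt14 and Krt12 UMIs in 46.2% of losartan, 78.7% of saline and 0.807% of uninjured cycling cells. Krt14 held under 10% in 0 of 130 losartan, 0 of 75 saline and 63.7% of uninjured cycling cells. Most uninjured cycling cells were therefore Krt12-rich, and the saline cycling cells were the most Krt14-rich of the 3 libraries. Krt14 held over 90% in 344 of 1364 losartan, 339 of 503 saline and 35 of 8621 uninjured epithelial cells at this depth. It held under 10% in 98, 6 and 6966 of them. The difference between the libraries was thus not particular to cycling cells. In stromal cells at 5000 UMIs Krt12 had a UMI in 26.7% of losartan, 6.17% of saline and 97.8% of uninjured cells. Krt14 had a UMI in 33.8%, 37.0% and 15.6% of them. Uninjured stromal cells held 923 CPM of Krt12. The part of such background RNA in the balance of Krt14 and Krt12 was not tested.

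The share of cells that cycled is also described by keratin balance, with nothing tested, since Krt14 and Krt12 helped choose the cells. Among losartan epithelial cells at 5000 UMIs, 0 of 98 cycled where Krt14 held under 10% of the UMIs, 4.55% (2.97 to 6.65) where it held 10 to 50%, 12.1% (8.94 to 15.8) at 50 to 90% and 17.4% (13.6 to 21.9) at 90 to 100%. Saline cells gave 0 of 6, 3.39% (2 of 59), 14.1% (7.95 to 22.6) and 17.4% (13.5 to 21.9) in the same bins. Uninjured cells gave 7.94% (7.31 to 8.60), 19.7% (17.7 to 21.8), 10.3% (12 of 116) and 20% (7 of 35). In the 2 injured libraries the bins with more Krt14 had the higher values, while the uninjured library showed no steady order across its 4 bins.

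**Figure D2:**
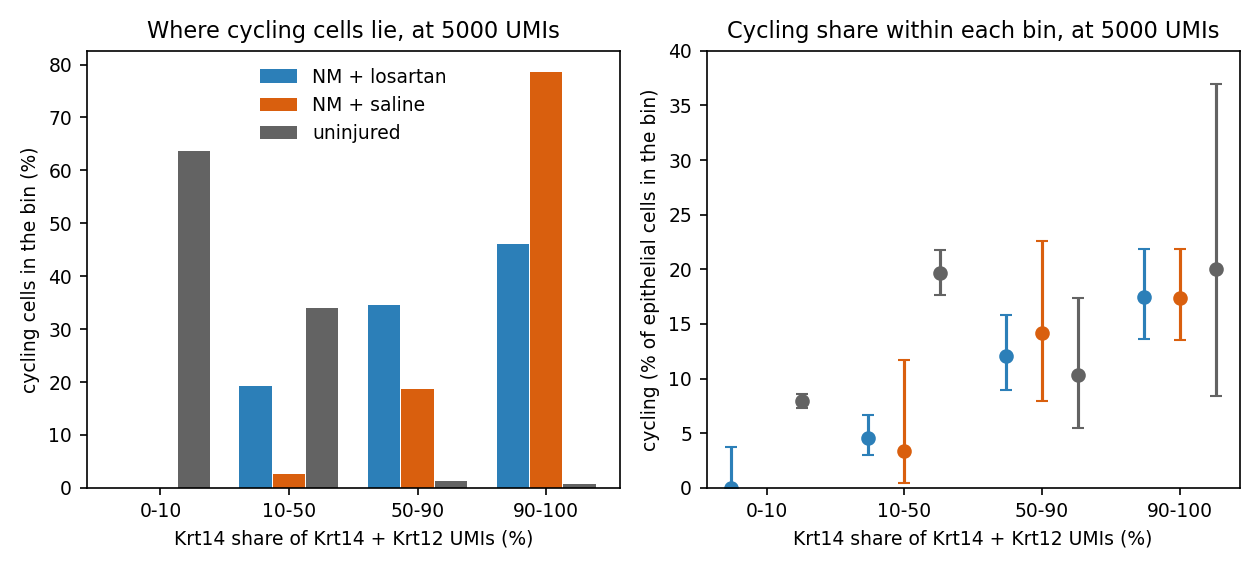
Left, percentage of the cycling cells of each library (vertical axis) in bins of the Krt14 share of Krt14 plus Krt12 UMIs (horizontal axis); right, cycling cells as a percentage of the epithelial cells in each bin, with exact 95% intervals, for bins of at least 20 cells. All cells were thinned to 5000 UMIs. Uninjured cycling cells lie mostly below 10% Krt14 (63.7%), and saline cycling cells mostly above 90% (78.7%).

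To compare gene levels, UMIs were summed over the cycling cells of a library, which gave 15427374 UMIs after losartan, 19595051 after saline and 33374076 in the uninjured library. Cells at or below 100000 UMIs held 13381206, 6247008 and 33264947 of these, so most UMIs of the saline sum came from its 90 deepest cells. Without the cells holding 2 or more leukocyte genes the saline sum was 12257854 UMIs. Log2 ratios are of CPM + 5, a gene was measured at 10 CPM or more in 1 of the 2 libraries, and it was called when at least 2-fold apart on that scale. Fold ratios with intervals are of CPM itself. For losartan against uninjured, 8826 genes were measured, of which 8.35% were called higher and 8.74% lower. For saline against uninjured, 8929 were measured, with 10.8% called higher and 10.5% lower. These comparisons share the uninjured cells, so their values stand side by side and are not independent of each other. In bulk sums such as these, fewer cells making a transcript and less of it per cell cannot be told apart, so shares of cells at 5000 UMIs are given for the main genes, with the cells chosen anew by the rule after thinning.

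In cycling cells of both injured libraries no measured DNA replication gene was 2-fold apart from uninjured cycling cells, while many genes of mitosis were lower. Origin licensing genes, which load and start the replicative helicase, had a median log2 ratio of 0.08 for losartan and 0.13 for saline, with 0 of 15 measured members called in either direction in each comparison. Replication genes, for the fork, nucleotides and S-phase chromatin, had medians of −0.04 and 0.02, with 0 of 34 called. All measured genes had medians of −0.04 and −0.09. Spindle and kinetochore genes had medians of −1.002 for losartan and −0.96 for saline, with 24 and 21 of 48 called lower and 0 higher. Genes of the G2 and mitotic kinases and the anaphase-promoting complex had medians of −0.79 and −0.78, with 9 of 28 called lower in each comparison and 0 higher.

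Set against the other epithelial cells of the same library, cycle genes stood higher by the rule that chose the cells. Spindle and kinetochore genes were called higher in 44 of 45 measured after losartan, 43 of 46 after saline and 47 of 48 in the uninjured library, where 5.03%, 3.75% and 3.62% of all measured genes were called higher, and nothing is read from these counts.

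Among the replication genes, Pcna, the sliding clamp, had 176 CPM in losartan, 187 CPM in saline and 156 CPM in uninjured cycling cells. Rrm2, a subunit of ribonucleotide reductase, had 129, 130 and 104 CPM in the same libraries. Mcm4, a subunit of the replicative helicase, had 96.2, 103 and 63.7 CPM, and Hells, a chromatin remodeller of S phase, had 85.3, 73.6 and 54.7 CPM. None of these passed the 2-fold call. At equal depth their detection stood further apart. Pcna had a UMI in 62.3% of losartan, 69.3% of saline and 43.4% of uninjured cycling cells, and in 24.3%, 26.4% and 25.2% of the other epithelial cells. Rrm2 had a UMI in 60.8%, 66.7% and 37.9% of cycling cells, and Mcm4 in 40.0%, 46.7% and 24.2%. The interval of each injured library lay above that of the uninjured library for these 3 genes.

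The 7 genes of the rule are described without a test, since they chose the cells. Mki67 (chr7:135689784-135716361, minus strand), a surface protein of mitotic chromosomes, had 93.0 CPM in losartan cells, 90.4 CPM in saline cells and 308 CPM in uninjured cells. Cenpf, a kinetochore protein, had 43.2, 51.6 and 339 CPM. Ccnb1, cyclin B1, had 25.1, 27.2 and 69.3 CPM. Top2a, the topoisomerase that untangles sister chromatids, had 228, 223 and 425 CPM, and Birc5, a chromosomal passenger protein, had 104, 94.4 and 182 CPM. Ube2c, the ubiquitin-conjugating enzyme of the anaphase-promoting complex, had 211, 252 and 310 CPM. Cdk1, the mitotic kinase, had 89.9, 110 and 108 CPM and so was at a similar level in all 3 libraries. Mki67, Cenpf and Ccnb1 passed 2-fold in both comparisons with the uninjured library and the other 4 did not. With each cell weighted equally, the median of the 7 genes for saline moved to −0.26 from −0.92 in the summed counts.

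Mitotic genes outside the rule differed in the same way. Ccnb2, cyclin B2, had 27.9 CPM after losartan, 29.1 CPM after saline and 128 CPM in the uninjured library, 4.57-fold lower (4.13 to 5.05) after losartan and 4.38-fold lower (4.02 to 4.79) after saline. Kif23, a kinesin of the central spindle, had 22.04, 19.1 and 118 CPM, 5.36-fold lower (4.79 to 6.002) after losartan and 6.18-fold lower (5.56 to 6.90) after saline. Aspm, a spindle pole protein, had 4.67, 5.92 and 56.8 CPM, and Lmnb1, a lamin of the nuclear envelope, had 46.0, 49.2 and 219 CPM. Cdc20, an activator of the anaphase-promoting complex, had 40.1, 35.7 and 152 CPM, Nusap1, a spindle microtubule protein, had 26.3, 33.02 and 122 CPM, and Plk1, a mitotic kinase, had 9.07, 14.1 and 45.7 CPM. A few members of the spindle list did not move with the rest. Smc2, a condensin subunit, had 173, 176 and 148 CPM, and Tubb5, a beta tubulin, had 1343, 1199 and 815 CPM, neither of them 2-fold apart.

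The lower mitotic levels were also seen at equal depth. Ccnb2 had a UMI in 19.2% (12.8 to 27.1) of losartan, 21.3% (12.7 to 32.3) of saline and 54.7% (51.3 to 58.1) of uninjured cycling cells. Kif23 had a UMI in 16.9%, 20% and 54.6%. In stromal cells at the same depth Ccnb2 had a UMI in 0.920% of losartan, 2.47% of saline and 1.37% of uninjured cells, and Kif23 in 2.30%, 6.17% and 2.19%. The spindle median was −1.01 for losartan and −0.78 for saline after thinning. Of the rule genes, which chose the cells anew at this depth and support nothing here, Cenpf had a UMI in 27.7%, 45.3% and 78.8%. Top2a and Ube2c went the other way in detection, with a UMI in 88.5% and 71.5% of losartan, 88.0% and 92.0% of saline, and 74.5% and 68.0% of uninjured cycling cells, so no order is read from these 2 genes, nor from Cdk1, which had a UMI in 58.5%, 64.0% and 45.3%.

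**Figure D3:**
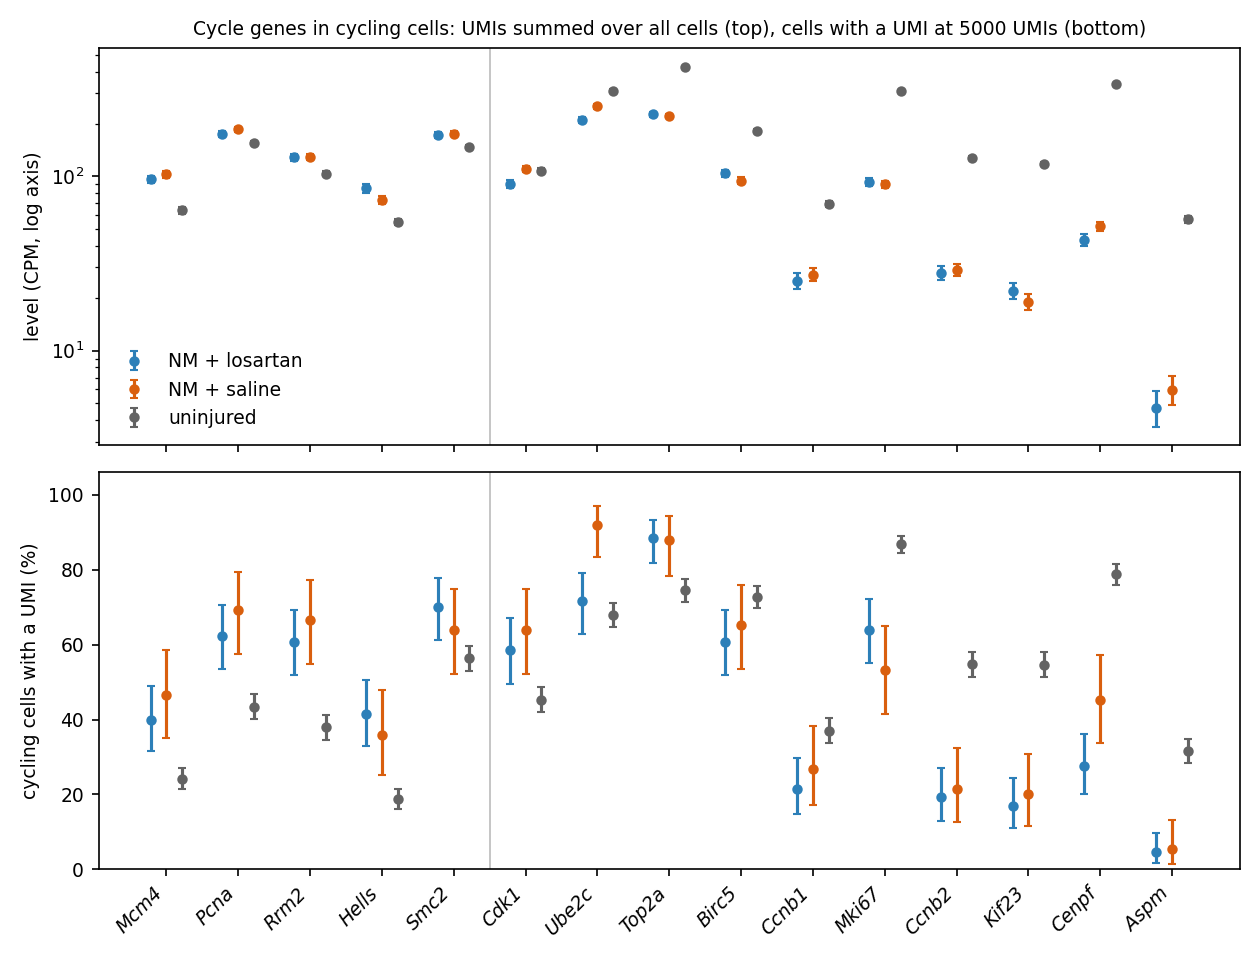
Levels in CPM on a log axis (top) and percentage of cycling cells with a UMI at 5000 UMIs (bottom) for 5 genes of S phase and chromosome structure (left of the line) and 10 genes of G2 and mitosis (right of it), with exact 95% intervals for counting error. The uninjured library lies below both injured libraries for Mcm4 and Rrm2 and above them for Mki67, Ccnb2, Kif23, Cenpf and Aspm.

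Mitotic genes are known to share promoter elements, the cell cycle genes homology region (CHR) and CCAAT boxes, while S-phase genes carry E2F sites. The 250 bases before the RefSeq start (GRCm38.p6, each written 5′ to 3′ on the gene's strand) are shown for 3 genes with lower levels after injury, Mki67, Cenpf and Ccnb2, for 2 mitotic genes less than 2-fold apart, Cdk1 and Ube2c, and for the S-phase gene Hells. Capitals mark TTTGAA or TTCGAA (CHR) and CCAAT on either strand in the first 5, and TTTCGCGC, TTTGGCGC or TTTCCCGC (E2F) on either strand in Hells. One E2F match of Cdk1 is left in lower case.
Mki67: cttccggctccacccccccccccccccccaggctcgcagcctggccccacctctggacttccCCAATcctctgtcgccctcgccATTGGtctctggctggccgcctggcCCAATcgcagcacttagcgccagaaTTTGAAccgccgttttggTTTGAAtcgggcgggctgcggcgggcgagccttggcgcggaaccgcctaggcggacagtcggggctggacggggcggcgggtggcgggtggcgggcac
Cenpf: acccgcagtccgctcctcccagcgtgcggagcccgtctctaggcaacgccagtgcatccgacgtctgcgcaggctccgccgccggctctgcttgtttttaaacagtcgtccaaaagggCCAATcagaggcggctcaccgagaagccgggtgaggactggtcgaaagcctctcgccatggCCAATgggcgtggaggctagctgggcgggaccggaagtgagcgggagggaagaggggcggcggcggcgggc
Ccnb2: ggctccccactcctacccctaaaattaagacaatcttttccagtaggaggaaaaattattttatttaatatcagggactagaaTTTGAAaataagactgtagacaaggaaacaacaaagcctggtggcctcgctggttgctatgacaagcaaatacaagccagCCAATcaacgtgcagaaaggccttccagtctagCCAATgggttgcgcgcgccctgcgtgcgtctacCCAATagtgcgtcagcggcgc
Cdk1: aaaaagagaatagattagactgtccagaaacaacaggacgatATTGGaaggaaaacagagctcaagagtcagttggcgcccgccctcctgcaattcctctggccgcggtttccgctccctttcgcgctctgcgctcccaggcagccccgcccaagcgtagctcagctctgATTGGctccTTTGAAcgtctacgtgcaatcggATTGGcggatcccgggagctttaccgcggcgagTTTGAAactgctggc
Ube2c: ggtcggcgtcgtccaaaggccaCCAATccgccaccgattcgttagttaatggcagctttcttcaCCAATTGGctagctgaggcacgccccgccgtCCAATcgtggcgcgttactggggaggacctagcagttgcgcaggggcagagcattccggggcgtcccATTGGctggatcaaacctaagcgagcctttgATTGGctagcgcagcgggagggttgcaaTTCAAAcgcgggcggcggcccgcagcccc
Hells: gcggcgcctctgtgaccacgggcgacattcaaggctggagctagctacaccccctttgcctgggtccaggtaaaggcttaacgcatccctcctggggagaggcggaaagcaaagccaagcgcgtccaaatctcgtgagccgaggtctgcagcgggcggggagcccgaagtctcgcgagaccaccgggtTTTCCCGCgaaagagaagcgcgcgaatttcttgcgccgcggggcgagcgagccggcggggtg
The windows are chr7:135716380-135716629 for Mki67, chr1:189688087-189688336 for Cenpf and chr9:70421555-70421804 for Ccnb2, all on the minus strand. Cdk1 is at chr10:69352913-69353162 on the minus strand, Ube2c at chr2:164769679-164769928 and Hells at chr19:38930740-38930989, both on the plus strand. No match of 1 motif overlapped a match of another in these windows, and in Ube2c a pair of CCAAT matches on opposite strands overlap.

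Mki67 held 2 CHR and 3 CCAAT matches, Ccnb2 held 1 and 3, and Cenpf held 0 and 2. Cdk1 held 2 and 3 and Ube2c held 1 and 6, so the promoters of genes at lower and at similar levels were not set apart by these letters. Over all 27025 promoters of the same length, 17.4% held a CHR match, 34.5% a CCAAT match, 6.21% both and 1.59% an E2F match. Of 40 matched spindle and kinetochore promoters, 37.5% held CHR, 67.5% CCAAT, 32.5% both and 7.5% E2F. Of 22 matched G2 and mitotic kinase promoters, 40.9% held CHR, 72.7% CCAAT and 0 E2F. Of 14 matched licensing promoters, 6 (42.9%) held E2F and 28.6% held CHR, and of 28 matched replication promoters, 10.7% held E2F and 17.9% CHR. These matches describe letters in a window and were not tested for binding.

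Targets of p53 rose in the cycling cells of both injured libraries. Of 31 measured targets, 21 were called higher and 2 lower after losartan, with a median log2 ratio of 1.45, and of 30 after saline, 15 were called higher and 3 lower, with a median of 1.03. Cdkn1a (chr17:29090976-29100727, plus strand), the CDK inhibitor p21, had 1165 CPM in losartan, 740 CPM in saline and 392 CPM in uninjured cycling cells, 2.98-fold higher (2.91 to 3.04) after losartan and 1.89-fold higher (1.85 to 1.93) after saline. Only the losartan value passed the 2-fold call. Mdm2, the ubiquitin ligase that limits p53, had 490.5, 314 and 79.0 CPM, 6.21-fold higher (5.94 to 6.50) and 3.98-fold higher (3.797 to 4.16). Ccng1, cyclin G1, had 238, 184 and 32.1 CPM. Trp53inp1, a p53-induced regulator of autophagy and cell death, had 190, 96.0 and 5.36 CPM, 35.3-fold higher (30.4 to 41.3) after losartan and 17.9-fold higher (15.4 to 21.0) after saline.

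Targets that act in cell death were among those that rose in cycling cells of the injured libraries. Pmaip1 (Noxa), a pro-apoptotic BH3-only protein, had 81.2 CPM after losartan, 46.1 CPM after saline and 2.40 CPM in the uninjured library. Bbc3 (Puma), of the same kind, had 28.1 CPM after losartan, 7.25 CPM after saline and 2.91 CPM in the uninjured library. It was 3.87-fold higher (3.20 to 4.72) after losartan than after saline, and at 5000 UMIs it had a UMI in 20% (13.5 to 27.9) of losartan, 1.33% (0.0338 to 7.21) of saline and 1.27% of uninjured cycling cells. Eda2r, a death-domain receptor, had 29.3 CPM after losartan, 15.1 CPM after saline and 0.0300 CPM, a single UMI, in the uninjured library. In stromal cells of the same libraries Eda2r had 98.2, 56.1 and 2.09 CPM, and Pmaip1 had 30.2, 120.5 and 1.86 CPM. Higher levels of these 2 genes after injury were thus not confined to cycling cells. Bbc3 had a UMI in 10.6% of losartan, 8.64% of saline and 4.10% of uninjured stromal cells at 5000 UMIs. The members that fell in cycling cells were Sesn1, a sestrin, at 32.99, 17.2 and 80.0 CPM, and Xpc, a damage sensor of nucleotide excision repair, at 14.8, 13.7 and 49.1 CPM. In stromal cells at 5000 UMIs Sesn1 had a UMI in 6.90% of losartan, 6.17% of saline and 19.1% of uninjured cells. Xpc had a UMI in 8.05%, 9.88% and 19.95% of them, so both were also found less often in injured stromal cells. Btg2, an antiproliferative gene that is also an immediate early gene, had 302, 193 and 577 CPM and passed the 2-fold call after saline.

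At equal depth, Cdkn1a had a UMI in 95.4% of losartan, 92.0% of saline and 56.6% of uninjured cycling cells, against 92.3%, 87.6% and 62.9% of the other epithelial cells. In stromal cells it had a UMI in 93.8% of losartan, 88.9% of saline and 33.9% of uninjured cells, and in neutrophil-marked cells in 18 of 18 losartan and 84.4% of saline cells. The shares in cycling cells of the injured libraries were thus about the same as in other cell types, and expression per cell is not read from them. Mdm2 had a UMI in 77.7% of losartan, 62.7% of saline and 31.4% of uninjured cycling cells, and Trp53inp1 in 54.6%, 32% and 2.07%. In stromal cells at 5000 UMIs Mdm2 had a UMI in 67.6% of losartan, 55.6% of saline and 22.4% of uninjured cells, and Trp53inp1 in 40.5%, 46.9% and 10.7%. The saline stromal share of Trp53inp1 was above that of saline cycling cells, and expression per cell is not read from that share. The median of the p53 list was 0.92 for losartan and 0.90 for saline in the other epithelial cells, where all measured genes had medians of −0.16 and −0.13. Within the losartan library, cycling cells lay above other epithelial cells by a median of 0.68 over the p53 list, against 0.18 within the saline library and −0.11 within the uninjured one, beside 0.21, 0.11 and 0.06 for all measured genes. The list summed to 5834 CPM in cycling and 5498 CPM in other epithelial cells after losartan. It summed to 5039 and 5850 CPM after saline and 3553 and 4345 CPM in the uninjured library. The rule chose the cycling cells, so nothing is read from this contrast.

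**Figure D4:**
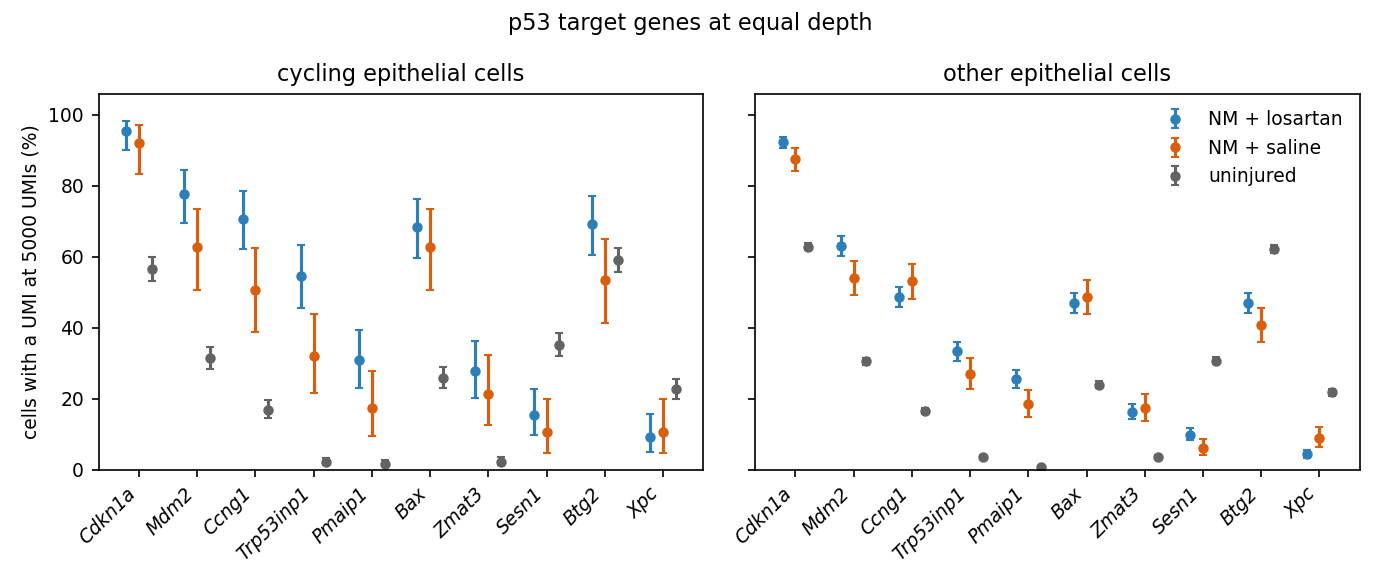
Percentage of cells with a UMI at 5000 UMIs (vertical axis) for 10 p53 targets (horizontal axis) in cycling cells (left) and other epithelial cells (right), with exact 95% intervals for counting error. In cycling cells, Trp53inp1 was found in 54.6% of losartan, 32% of saline and 2.07% of uninjured cells, while Sesn1 and Xpc were most often found in the uninjured library.

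Several other CDK inhibitors and arrest genes fell in cycling cells after injury. Cdkn1b (p27) had 41.5 CPM after losartan, 33.9 CPM after saline and 118 CPM in the uninjured library, and Cdkn2d (p19) had 18.2, 24.6 and 86.3 CPM. Cdkn2c (p18) had 15.6, 12.7 and 48.0 CPM. Gas1, a membrane protein first found in growth-arrested cells, had 26.3 CPM after losartan, 8.42 CPM after saline and 275 CPM in the uninjured library, 10.5-fold lower (9.48 to 11.6) and 32.7-fold lower (28.0 to 38.3). It had a UMI in 17.7% of losartan, 5.33% of saline and 71.1% of uninjured cycling cells at 5000 UMIs, and in 31.95% of losartan, 8.64% of saline and 65.6% of uninjured stromal cells. Of 11 measured genes of the inhibitor list, 1 was called higher and 4 lower after losartan, and 1 higher (Cdkn2b, p15) and 5 lower after saline. The list's medians were 0.13 and −0.45, and the losartan median was negative under 3 alternatives. In the other epithelial cells 1 of 11 was called higher and 4 lower after losartan, and 0 higher and 4 lower after saline.

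Genes of growth changed in part. Myc, a driver of cell growth, had 45.7 CPM after losartan, 57.6 CPM after saline and 22.3 CPM in the uninjured library and passed 2-fold for saline. Of 18 measured genes of G1 entry, 1 was called higher and 1 lower after losartan, and 2 higher and 2 lower after saline. Over all measured genes 8.35% were called higher and 8.74% lower after losartan, and 10.8% and 10.5% after saline. The G1 entry counts are near those shares, and nothing is read from them. Ccnd2, cyclin D2, was called higher in both comparisons, at 357, 336 and 164 CPM in losartan, saline and uninjured cells. The EGF receptor list had 7 of 15 members called higher in each comparison and 0 lower, with medians of 0.43 and 0.93. Areg, amphiregulin, a ligand of that receptor, had 257, 553 and 14.1 CPM, and Ereg, epiregulin, had 70.9, 114 and 3.03 CPM. Ribosome biogenesis genes had medians of 0.61 and 0.50, with 5 of 26 called higher and 0 lower after losartan, and 6 higher and 1 lower after saline. Npm1, nucleophosmin of the nucleolus, had 1327 CPM after losartan, 1294 CPM after saline and 390 CPM in the uninjured library. Immediate early genes, which respond within minutes to stimuli, had medians of −0.83 and −0.86, with 7 and 9 of 20 called lower and 0 higher. Fos had 756, 550 and 1873 CPM and Egr1 59.6, 40.2 and 263 CPM.

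Keratins and cornified envelope genes of injured epithelium rose in both comparisons. The list also holds S100a8 and S100a9, which injured keratinocytes make but which here mark neutrophils. Of 21 measured members, 19 were called higher after losartan and 21 after saline, none was called lower, and the medians were 2.79 and 4.17. Without S100a8 and S100a9, 17 of 19 were called higher after losartan and 19 of 19 after saline, with medians of 3.20 and 4.23. Krt17 had 833 CPM after losartan, 1874 CPM after saline and 19 CPM in the uninjured library. It was found in 66.9% of losartan, 90.7% of saline and 4.15% of uninjured cycling cells at 5000 UMIs, and in 2.76% of losartan and 9.88% of saline stromal cells. Krt7, a keratin of simple and conjunctival epithelium, had 198, 767 and 0.869 CPM. Krt6a had 3409, 5071 and 715 CPM. Sprr1a, an envelope precursor, had 1192, 3468 and 18.8 CPM. Sprr2f, of the same gene cluster, had 219 and 1537 CPM in losartan and saline cells and 0 UMIs in uninjured cells. Close paralogs of the Sprr2 group can share reads, so the value of a single member is uncertain. In the other epithelial cells the full list had medians of 3.35 after losartan and 4.26 after saline. There, 20 and 21 of 22 measured members were called higher and 0 lower, so the rise was not confined to cycling cells.

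Many corneal differentiation genes fell. Of 22 measured members of the corneal identity list, 11 were called lower and 3 higher in each comparison, with medians of −0.92 after losartan and −1.33 after saline. Aldh3a1, the corneal crystallin aldehyde dehydrogenase, had 1290 CPM after losartan, 293 CPM after saline and 11653 CPM in the uninjured library. Tkt, transketolase, had 991, 351 and 6618 CPM, and Adh7, an alcohol dehydrogenase, had 32.4, 5.41 and 1560 CPM. Slurp1, a secreted Ly6 protein of the ocular surface, had 101, 3.16 and 3328 CPM, and Lypd2 had 9.79, 3.93 and 4545 CPM. In uninjured stromal cells at 5000 UMIs, Lypd2 had a UMI in 60.7% and Slurp1 in 44.3% of cells, and these stromal cells held 185 and 129 CPM. Pax6, the eye transcription factor, had 91.9, 84.0 and 389.5 CPM, 4.24-fold lower (4.01 to 4.48) after losartan and 4.64-fold lower (4.41 to 4.89) after saline. Trp63, the basal keratinocyte factor p63, had 145, 127 and 203 CPM and was not called. The 3 members called higher were Areg, Clu and Fabp5. Krt15, a keratin of limbal basal cells, had 1919 CPM after losartan, 3047 CPM after saline and 803 CPM in the uninjured library, and it passed 2-fold in both comparisons. The basal and progenitor list as a whole had medians of 0.02 and 0.04. Of its 22 measured members, 5 were called higher and 3 lower after losartan, and 6 higher and 5 lower after saline. Its saline median ran from −0.25 to 0.44 under the alternatives. In the other epithelial cells the corneal identity list had medians of −0.61 after losartan and −1.18 after saline. There, 11 of 22 were called lower and 3 higher in each comparison, so this fall was not confined to cycling cells.

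**Figure D5:**
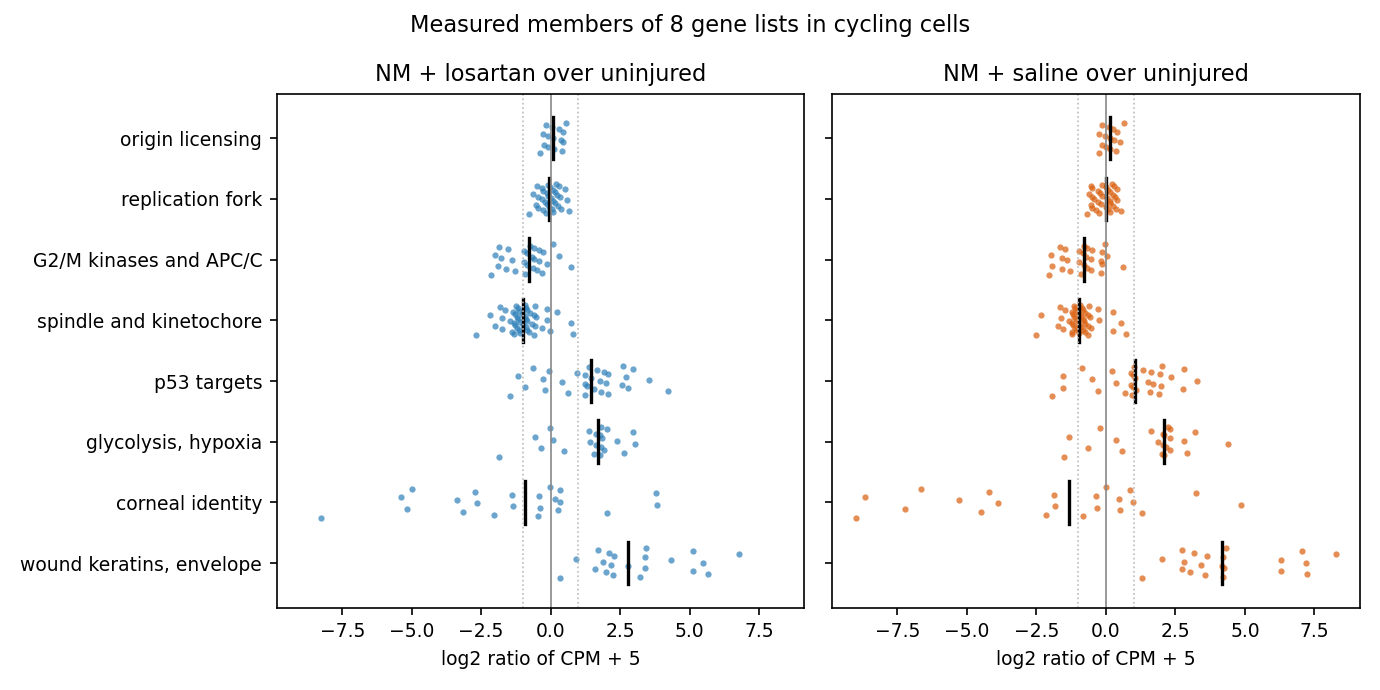
Log2 ratios of CPM + 5 in cycling cells (horizontal axis) of every measured member of 8 gene lists (rows), for losartan over uninjured (left) and saline over uninjured (right). Points are genes, black bars are list medians and dotted lines mark 2-fold; licensing and replication genes centre near 0, spindle genes near −1.002 and −0.96, and injury keratins, with S100a8 and S100a9, at 2.79 and 4.17.

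Cytoskeletal, matrix and protease genes of migrating keratinocytes rose as a list, with 13 of 22 members called higher and 2 lower after losartan, and 13 of 21 higher and 2 lower after saline, at medians of 1.15 and 1.36. Tnc, the wound matrix protein tenascin C, had 114 CPM after losartan, 201 CPM after saline and 0.180 CPM in the uninjured library, and was found in 33.1%, 42.7% and 0.115% of cycling cells at 5000 UMIs. Its share in other epithelial cells was 14.2%, 23.8% and 0.116%, and in stromal cells 49.9%, 24.7% and 11.2%. Actn1, an actin crosslinker, had 183, 236 and 1.23 CPM, and Tpm1, a tropomyosin, had 582, 802 and 17.2 CPM. In neutrophil-marked cells Actn1 had 177 CPM in losartan and 195 CPM in saline, and Tpm1 had 27.9 and 18.3 CPM. The part of leukocyte RNA in Actn1 was not tested. Serpinb2, plasminogen activator inhibitor 2, had 124, 193 and 1.14 CPM. Fn1, fibronectin, was one of the 2 that fell, with 30.1 CPM after losartan, 14.5 CPM after saline and 133 CPM in the uninjured library. In the other epithelial cells the list had medians of 0.99 after losartan and 1.355 after saline, with 11 and 15 of 22 called higher and 2 lower in each.

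Glycolysis and hypoxia genes rose, with 16 of 22 called higher in each comparison, 1 lower after losartan and 2 lower after saline, at medians of 1.69 and 2.08. Ldha, lactate dehydrogenase A, had 1097 CPM after losartan, 1504 CPM after saline and 354.5 CPM in the uninjured library. Bnip3, a mitophagy receptor, had 45.2, 51.2 and 1.11 CPM, and Ndufa4l2 had 27.6, 105 and 0.210 CPM. Egln3, a prolyl hydroxylase of the hypoxia factors, fell, with 94.2, 121 and 354 CPM. The same list had medians of 1.42 and 2.11 in the other epithelial cells.

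The naming rule also took genes of no list, among the 8 highest and 8 lowest ratios of each comparison. Ppbp, a CXC chemokine best known from platelets, had 1565 CPM after losartan, 7612 CPM after saline and 0.270 CPM in the uninjured library. It was found in 50.8% of losartan and 98.7% of saline cycling cells at 5000 UMIs, against 9.89% and 37.0% of stromal cells. Igfbp3, a binding protein of insulin-like growth factors, had 325, 604 and 0.120 CPM, Ly6a had 1051, 2261 and 20.4 CPM, Msn, moesin of the actin cortex, had 276, 354.5 and 2.82 CPM, and Ecm1, an extracellular matrix protein, had 677, 2256 and 18.7 CPM. Msn had 962 CPM in losartan and 754 CPM in saline neutrophil-marked cells, and the part of leukocyte RNA in Msn was not tested. Among the lowest, Trpm3, a cation channel, had 13.5, 6.99 and 603 CPM, Lsamp, a cell adhesion protein, had 60.3, 3.88 and 599 CPM, and Dapl1, of the corneal list, had 45.1, 13.1 and 1817 CPM. Lsamp had 372 CPM in losartan, 1158 CPM in saline and 1651 CPM in uninjured stromal cells. Stromal markers summed to 72.5 CPM in losartan, 23.02 CPM in saline and 141 CPM in uninjured cycling cells, with Col3a1 and Thy1 at 0 after saline, and the part of stromal RNA in Gas1, Lsamp and Fn1 was not tested.

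Of 8284 genes measured between the cycling cells of the injured libraries, 0.773% (64) were called higher and 1.77% (147) lower after losartan. The number differed with the cells and UMIs summed. After thinning, where the sums held 650000 UMIs of 130 losartan cells and 375000 UMIs of 75 saline cells, 556 were called higher and 462 lower, and within 20000 to 50000 UMIs, with 14 saline cells, 271 and 536. These counts stand without a share of measured genes. In sums this small a gene near 10 CPM rests on few UMIs and can pass 2-fold by counting error alone. No difference between the libraries is read from them. In the full sums, no member of the licensing, replication, mitotic kinase or spindle lists was called in either direction. Their medians were −0.03, −0.01, −0.01 and −0.09, beside 0.03 for all measured genes. Injury keratins and envelope genes had a median of −1.13, with 12 of 21 called lower and 0 higher, and without S100a8 and S100a9 a median of −1.12, with 10 of 19 called lower and 0 higher. Leukocyte markers moved the same way, with 5 of 5 measured, S100a8 and S100a9 among them, called lower at a median of −1.35, and summed to 72.3 CPM in losartan and 220 CPM in saline cycling cells. Without the cells holding 2 or more leukocyte genes, the keratin and envelope genes without S100a8 and S100a9 had a median of −1.17, with 11 of 19 called lower. Krt7 was 3.86-fold lower (3.71 to 4.02) and Krt17 2.25-fold lower (2.21 to 2.30) after losartan, and Sprr1a was 2.91-fold lower (2.86 to 2.96). Corneal identity genes had a median of 0.51, with 6 of 21 called higher and 1, Areg, lower. Slurp1 was 31.9-fold higher (24.8 to 41.8) after losartan, and at 5000 UMIs it had a UMI in 16.9% (10.9 to 24.5) of losartan cycling cells and in 0 of 75 saline cycling cells, with an upper bound of 4.80%. Aldh3a1 was 4.40-fold higher (4.27 to 4.53) and Krt12 2.27-fold higher (2.24 to 2.30).

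The same 2 lists had medians of −1.03 and 0.67 in the other epithelial cells, so differences of like size were present in cells outside the rule. Saline cycling cells at or below 100000 UMIs gave an injury keratin median of −0.87, with 6 of 20 measured members called lower and 1 higher, and without S100a8 and S100a9 of −0.79, with 4 of 18 lower and 1 higher. The p53 list had a median of 0.36 with 1 of 31 called, Bbc3. In the other epithelial cells its median was 0.03. By the naming rule, which also asks for a minimum share of cells, the highest ratios of losartan to saline were those of Lsamp, Gpnmb and Mmp10. Gpnmb, a transmembrane glycoprotein of pigment cells and phagocytes, had 57.9 CPM after losartan and 8.83 CPM after saline. It had a UMI in 20.8% and 2.67% of cycling cells at 5000 UMIs, and in 20.2% and 28.4% of stromal cells. Mmp10, stromelysin 2, had 56.3 and 8.63 CPM. Mt1 and Mt2, metallothioneins, had 1173 and 690 CPM after losartan and 375 and 188 CPM after saline.

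Interferon-stimulated genes had a median of −0.85 for losartan against saline, with 5 of 18 called lower and 0 higher. Isg15, a ubiquitin-like modifier, had 10.2 CPM after losartan, 41.9 CPM after saline and 24.7 CPM in the uninjured library. Rtp4 had 1.43 CPM after losartan, 15.7 CPM after saline and 3.87 CPM in the uninjured library. Leukocyte RNA moved with these genes. Its 16 markers summed to 72.3 CPM in losartan, 220 CPM in saline and 13.1 CPM in uninjured cycling cells, with Cd3e at 0 in the losartan and uninjured cells and Retnlg at 0 in the uninjured cells. In neutrophil-marked cells of the saline library Isg15 had 309 CPM and Rtp4 165 CPM. Without the cells holding 2 or more leukocyte genes, the log2 ratio of losartan over saline was −1.59 for Isg15, against −1.62 with them, and −1.78 for Rtp4, against −1.69. After thinning the ratio was −1.84 for Isg15 and −0.36 for Rtp4, which then was not called. Of the 8 lowest genes after losartan, 3 (Ccl3, Spp1 and Ccl4) had 28.3, 28.8 and 33.6 CPM in saline cycling cells, against 9399, 7358 and 10240 CPM in neutrophil-marked cells of that library. The part of leukocyte RNA in these 3 values was not tested.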

How the data were processed

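Single-cell RNA libraries of the 3 groups were made on the 10x Genomics platform, per the labels' protocols. What was deposited is a matrix of raw UMI counts for each library, written by Cell Ranger 8.0.0 according to its header (per the file headers), and the build is GRCm38 per the submitters' processing notes. The sources used here do not name the annotation release, say whether intronic reads were counted, or mention doublet removal. The 3 libraries held 92753670 (losartan), 83155441 (saline) and 177003042 (uninjured) UMIs.

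Barcodes with at least 500 genes and at most 20% mitochondrial UMIs were kept, which left 5162 of 5887 losartan, 6134 of 6814 saline and 12567 of 13270 uninjured barcodes. UMIs were summed over the cycling cells of a library and scaled to CPM. Ratios are log2 of CPM + 5 for genes at 10 CPM or more in 1 of the groups, and a gene was called at 2-fold. CPM has exact Poisson, shares exact Clopper-Pearson and ratios exact conditional binomial 95% intervals. UMIs are counted molecules, but intervals cover counting error only and no test between groups was possible. For equal depth each cell was thinned at random to 5000 UMIs and the rule applied again. Doublets were scored against simulated doublets (2 per cell, 30 neighbours, 2000 genes, with an expected share that grows with the barcodes) and removed only as an alternative. Named genes were the 8 highest and 8 lowest log2 ratios of each comparison, among genes with a UMI in at least 20% of the cycling cells of the higher library and 50% of its UMIs in at least 5% of them, the 4 largest of each list by the same conditions, the 7 rule genes and 9 fixed genes. Further list members were named for their roles after their values were seen. The members and lists were chosen with earlier results of these data known. Gene positions come from GENCODE M21 and promoters from RefSeq. The ratio script was tested on simulated data. Python 3.11.15, NumPy 2.4.6, SciPy 1.17.1, pandas 2.3.3, scikit-learn 1.9.0 and Matplotlib 3.10.9 were used.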

Additional observations from a re-analysis of the deposited data

How the results depend on the processing

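With 1 library per group, no result has a replicate check, and time after injury, animal and group cannot be told apart. No paired analysis was possible because each group had 1 sample. Of 761 list medians recomputed under the alternatives, 698 kept their sign and lay within 0.5 of the value reported, 27 kept their sign and moved further, and 36 changed sign, 29 of them from a median under 0.1 in size. The spindle median stayed between −1.09 and −0.80 for losartan and between −1.22 and −0.76 for saline, and the p53 median between 1.02 and 1.67 and between 0.79 and 1.41. The other 7 that changed sign were the further epithelial markers for saline against uninjured after thinning (−0.018), the EGF receptor list for losartan against uninjured with no minimum level (−0.015), the CDK inhibitors for losartan against uninjured at a minimum of 30 CPM (−0.92), after thinning (−0.054) and with each cell weighted equally (−0.12), and the basal list for losartan against saline at or below 100000 UMIs (−0.12) and within 20000 to 50000 UMIs (−0.13). The causes were not tested.

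The share of cycling cells among all epithelial cells moved with the rule. With at least 2 of the 7 genes it was 24.7% after losartan, 38.5% after saline and 20.01% in the uninjured library, and with at least 4 it was 13.5%, 18.98% and 9.92%. Keratins at 200 per 10000 UMIs gave 9.52% (7.88 to 11.4) after losartan, 18.7% after saline and 12.8% (12.2 to 13.5) in the uninjured library. The losartan share then lay below the uninjured share. A minimum of 200 genes gave 16.2% after losartan, 23.1% after saline and 12.9% in the uninjured library. Cells with at least 5000 UMIs, not thinned, gave 21.8%, 37.4% and 16.5%. In saline cells the share was 23.6% without cells holding leukocyte RNA and 19.7% at or below 100000 UMIs. Within 20000 to 50000 UMIs it was 15.9% in saline and 24.8% in uninjured cells. Without doublets the uninjured share was 11.9%.

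At equal depth the share was 3.87%, 7.31% and 5.26% at 2000 UMIs and 13.8%, 21.2% and 13.6% at 10000 UMIs, in losartan, saline and uninjured cells. At 5000 UMIs it was 24.0%, 38.6% and 28.0% with at least 1 gene and 13.3%, 23.3% and 14.6% with at least 2. Keratins at 200 per 10000 gave 3.88%, 7.83% and 8.43%, and keratins at 50 gave 11.4% after losartan and 19.5% after saline. It was 11.6% in saline cells at or below 100000 UMIs and 9.30% in uninjured cells without doublets.

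Counts of called genes moved with the pseudocount, the minimum level, thinning and depth. At CPM + 20, losartan against uninjured had 386 higher and 357 lower, saline against uninjured 527 and 448, and losartan against saline 19 and 64. At a minimum of 30 CPM, losartan against uninjured had 491 higher and losartan against saline 41 higher. At CPM + 1, losartan against saline had 224 lower. After thinning, saline against uninjured had 1592 lower and losartan against saline 556 higher and 462 lower. Within 20000 to 50000 UMIs, which left 14 saline cells, losartan against saline had 271 higher and 536 lower. The thinned and depth-limited sums are small, so genes near the minimum level can pass 2-fold by counting error alone. Nothing is read from their counts, which stand without a share of measured genes. The filters on depth, the thinned fits with other keratin thresholds, the thinned share without doublets the equal weighting of cells and the keratin list without S100a8 and S100a9 were chosen after seeing the data.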

Other observations

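A second screen used 7 genes of S phase in place of the rule, and counted epithelial cells with at least 3 of Rrm2, Tyms, Mcm5, Mcm3, Gins2, Clspn and Cdc6 at 5000 UMIs. It found 7.11% (5.80 to 8.61) of losartan, 10.3% (7.82 to 13.3) of saline and 5.43% (4.96 to 5.93) of uninjured epithelial cells. Of the cells that passed the cycling rule at this depth, 40.0% of losartan, 45.3% of saline and 23.5% of uninjured cells also passed the S-phase screen. Cells in the S-phase screen alone numbered 45, 18 and 264. Genes of DNA repair had medians of −0.43 in cycling cells for both losartan and saline against uninjured, with 1 and 2 of 33 measured members called higher and 2 lower in each. Over all measured genes 8.35% and 10.8% were called higher and 8.74% and 10.5% lower, and nothing is read from the repair counts.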
